A study of Cricetulus griseus with 9 samples.

Results

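The genes described here are the solute carrier genes of MI5-4 cells, a Chinese hamster ovary (CHO) cell line that the series design calls hexokinase null in its EV form. They were chosen by symbol, as the genes of the deposited table named Slc (number) a (number) or Slco, with Slc2a1 and Slc7a5 left out. The rule took 93 of 6753 genes, all of them of the Slc form and each above the level that the table lists, so carriers with lower values were not analysed here. Of the 93, Slc4a1ap, Slc7a6os and Slc9a3r1 match by name only. The other 90 are grouped here as carriers. They include Slc3a2, a partner chain of carriers, Slc27a3, an acyl-CoA synthetase, and Slc22a17, which binds lipocalin 2. RNA sequencing of mRNA libraries covered 3 groups of 3 libraries. The first group was labelled WTHK2 (wild-type hexokinase 2 expressed), the second was LAC (EV with sodium lactate at 10 mM over 24 h), and the third was EV without lactate. All cells grew in medium with 1000 mg/L glucose and 10% fetal bovine serum, with penicillin and streptomycin. The labels do not say whether each form of the line was a clone or a pool, or whether the replicates were separate cultures, so p-values reflect no more than how far these libraries spread.

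Solute carriers move amino acids, sugars, metal ions, vitamins, nucleotides and inorganic ions across the plasma membrane and the membranes of organelles. Many work as exchangers, taking up a solute in return for another or coupling its uptake to sodium or proton gradients. Hexokinase traps glucose in the cell as glucose 6-phosphate, and lactate enters and leaves cells with a proton through monocarboxylate carriers. Carriers of the SLC25 family sit mostly in the inner mitochondrial membrane and link the cytosol with the matrix. The SLC30 and SLC39 families move zinc and related metals out of and into the cytosol. SLC35 carriers bring nucleotide sugars into the Golgi apparatus and the endoplasmic reticulum, where glycans are built.

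Values are the authors' deposited normalized CPM, read counts scaled to a common library total, and fold changes are differences of log2(CPM + 1) from a limma fit of all 9 libraries, called where p, adjusted by Benjamini and Hochberg's method across the 6753 genes, lay under 0.05. CPM is not corrected for transcript length, so levels are compared between groups and not between genes. Effective library sizes, recovered from the values, ran from 18050959 to 26238659 reads. Hk2, the gene that the WTHK2 label names, stood at 66.6, 65.3 and 63.9 CPM in WTHK2-labelled libraries, 64.7, 70.4 and 68.5 CPM in LAC, and 68.4, 68.7 and 64.9 CPM in EV. Its values overlapped between WTHK2-labelled and EV libraries (log2 fold change -0.04, SE 0.0536, adjusted p = 0.522, 95% interval -0.16 to 0.07). The check of the targeted gene therefore did not bear out the label, and each direction below rests on that label. The species of the expressed HK2 is not stated, and whether its reads were counted as Hk2 was not tested, so this check cannot settle the label. Hk1, which encodes another hexokinase, stood at 279, 284 and 294 CPM in WTHK2-labelled libraries, 305, 302 and 300.2 CPM in LAC, and 332, 321 and 318 CPM in EV, so hexokinase transcripts were abundant in the group called null. It fell in WTHK2-labelled libraries (log2 fold change -0.18, SE 0.0354, adjusted p = 3.64e-04) and was at -0.10 in LAC (adjusted p = 0.0277), lost on leaving out EV replicate 1 or 2 or LAC replicate 3 (adjusted p = 0.0593 to 0.125) and with libraries set to an equal median (adjusted p = 0.212). Of 4 mesenchymal markers, Vim, S100a6 and Col3a1 were listed and Col1a1 was not. The 3 summed to 4329.8, 4438 and 4387 CPM in WTHK2-labelled libraries, 3706, 3578 and 3610.3 CPM in LAC, 3397, 3391 and 3485 CPM in EV. These sums did not overlap between any of the groups, and Vim made up most of each. Col3a1 by itself overlapped between LAC (189.4, 183.8 and 182.5 CPM) and EV (188.6, 182.8 and 193.2 CPM). The part of these markers in the results was not tested. For other cell types, 0 of 4 epithelial and 0 of 3 leukocyte markers were listed. In both the WTHK2-labelled and the LAC libraries the median of the 4 listed transcripts of the mitochondrial genome lay higher than the EV mean. Other transcripts of that genome were not listed under the names searched. Their median log2 difference was 0.73, 0.45 and 0.40 in WTHK2-labelled libraries and 0.80, 0.52 and 0.45 in LAC libraries, highest in replicate 1 of both groups, and their part in the results below was not tested. These are bulk libraries, in which a lower value in every cell and a loss in some cells cannot be told apart.

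Against EV, the solute carrier genes moved in both directions and by small amounts. Of 93, 38 were called in WTHK2-labelled libraries and 43 in LAC, where all genes gave 46.4% and 49.5%. In the WTHK2-labelled libraries 17 were higher and 21 lower than in EV, beside 21.0% higher and 25.4% lower over all genes. In LAC 17 were higher and 26 lower than in EV, beside 22.4% and 27.1% over all genes. As shares of the 93, these were 18.3% higher and 22.6% lower in WTHK2-labelled libraries and 18.3% higher and 28.0% lower in LAC, so neither count stood far from the background. The median log2 fold change of the members was -0.03 in WTHK2-labelled libraries and -0.002 in LAC, beside -0.01 and -0.004 over all genes. With all libraries set to an equal median the counts were 20 higher and 15 lower in WTHK2-labelled libraries and 22 higher and 18 lower in LAC. That scaling moved all genes alike, to 27.1% higher and 20.2% lower in WTHK2-labelled libraries and 30.4% higher and 21.5% lower in LAC, so the turn towards rises is not particular to the members. Changes of at least 1.2-fold were called for 6 higher and 8 lower members in WTHK2-labelled libraries, where all genes gave 6.66% and 10.7%. LAC had 6 higher and 10 lower members at that size, where all genes gave 6.28% and 13.2%. Without regard to the test, 20 members lay above and 24 below EV with no overlap in WTHK2-labelled libraries, beside 26.6% and 30.5% (57.1% in all) of all genes. In LAC these were 24 and 27, beside 27.0% and 30.8% (57.8% in all). Slc44a1 in LAC was the only called member past 1.5-fold. The 2 comparisons share the EV libraries.

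**Figure D1:**
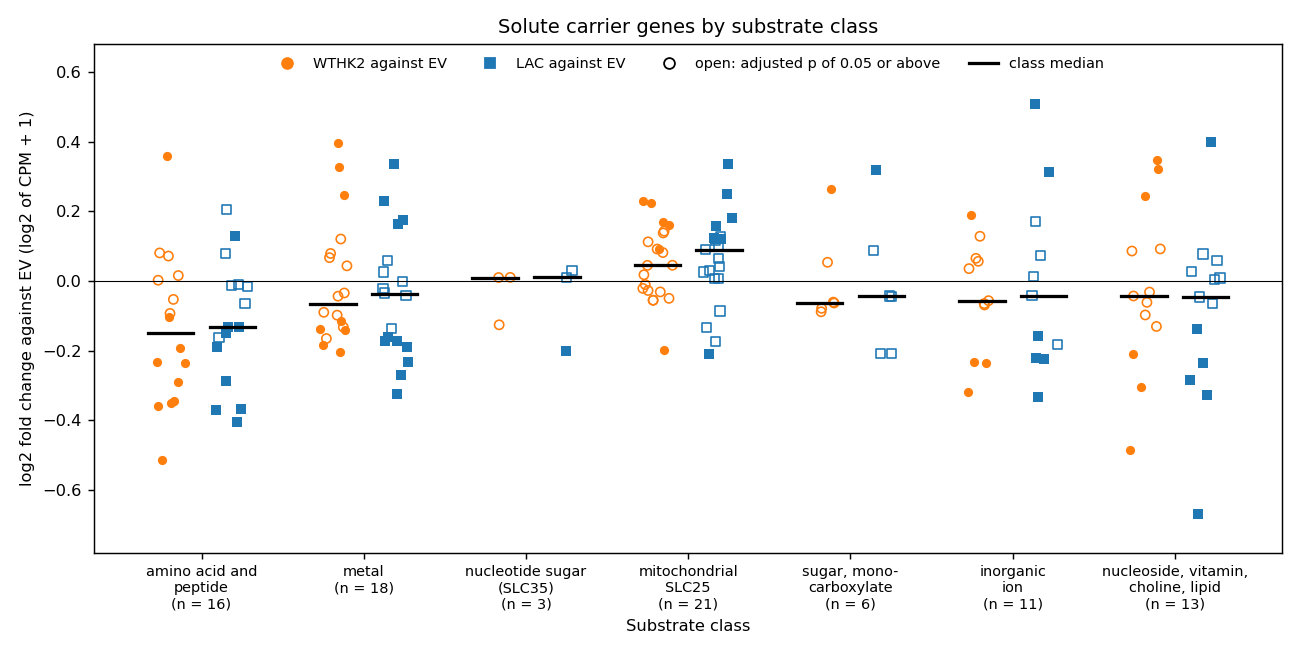
Log2 fold change of each solute carrier gene against EV (vertical axis, log2 of CPM + 1), for WTHK2 (circles) and LAC (squares), by substrate class. Filled symbols passed an adjusted p of 0.05, open symbols did not, and bars are class medians, which lie at -0.15 and -0.13 for amino acid carriers and at 0.04 and 0.09 for SLC25 carriers in WTHK2 and LAC. The 5 members outside these classes are not drawn.

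Amino acid carriers were mostly lower than in EV in both groups. Of the 16 amino acid and peptide carriers, 9 fell and 1 rose in WTHK2-labelled libraries, with a median log2 fold change of -0.15, and 8 fell and 1 rose in LAC, with a median of -0.13. All genes gave 25.4% and 27.1% lower in these comparisons. With all libraries set to an equal median there were 1 higher and 7 lower in WTHK2-labelled libraries and 2 higher and 6 lower in LAC. All genes then gave 20.2% and 21.5% lower. Without EV replicate 2 LAC had 1 higher and 5 lower, where all genes gave 22.2% lower, so the falls stood nearer to the background. Summed over the class, the carriers stood at 2074, 1943 and 2038 CPM in WTHK2-labelled libraries, 2087, 2083 and 2011 CPM in LAC, and 2177, 2140.3 and 2189.6 CPM in EV, and the 3 groups' sums overlapped only between WTHK2-labelled and LAC libraries.

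Slc1a4, an exchanger of alanine, serine and cysteine, had the largest fall of the WTHK2 comparison. It stood at 34.0, 35.6 and 40.2 CPM in WTHK2-labelled libraries, 37.4, 42.1 and 39.1 CPM in LAC, and 51.5, 56.5 and 50.0 CPM in EV. Both groups lay below every EV library, with log2 fold changes of -0.52 in WTHK2-labelled libraries (SE 0.0732, adjusted p = 1.41e-05) and -0.41 in LAC (SE 0.0732, adjusted p = 1.58e-04). Slc6a15, a sodium-coupled importer of branched-chain amino acids and proline, stood at 42.9, 42.9 and 40.6 CPM in WTHK2-labelled libraries, 39.2, 45.0 and 40.9 CPM in LAC, and 52.3, 56.7 and 53.2 CPM in EV. Its highest value in either group was under the lowest of EV, with -0.35 (adjusted p = 2.21e-04) and -0.37 (adjusted p = 1.35e-04). Slc36a4, a carrier of proline and tryptophan, fell by a like amount, to 23.5, 26.9 and 25.3 CPM in WTHK2-labelled libraries and 25.4, 27.0 and 22.8 CPM in LAC, against 36.0, 31.0 and 31.2 CPM in EV. Its log2 fold changes were -0.36 (adjusted p = 0.00177) and -0.37 (adjusted p = 0.00128).

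Other amino acid carriers were called lower in the WTHK2-labelled libraries. Slc6a8, the creatine carrier, stood at 63.5, 62.8 and 62.2 CPM in WTHK2-labelled libraries, 72.6, 76.8 and 69.6 CPM in LAC, and 79.6, 79.2 and 81.4 CPM in EV. The WTHK2-labelled libraries lay closest together and below all others, with log2 fold change -0.35, SE 0.0519, adjusted p = 2.62e-05. Slc7a1, which brings in arginine and lysine, stood at 110.1, 109.7 and 115 CPM in WTHK2-labelled libraries, 130.4, 127 and 118 CPM in LAC, and 138, 138 and 135 CPM in EV and was lowest in the WTHK2-labelled libraries (log2 fold change -0.29, SE 0.0460, adjusted p = 4.54e-05). In LAC both were nearer to EV, at -0.13 for Slc6a8 (adjusted p = 0.0390) and -0.13 for Slc7a1 (adjusted p = 0.0227). These LAC calls were not firm. Slc6a8 lost its call without EV replicate 1, 2 or 3 or LAC replicate 1 or 3 (adjusted p = 0.0710 to 0.159) and with libraries set to an equal median (adjusted p = 0.147). For Slc7a1 the call was lost on leaving out EV replicate 1 or 2 or LAC replicate 3 (adjusted p = 0.0685 to 0.137) and with that rescaling (adjusted p = 0.109). Slc1a3, a glutamate importer, and Slc1a5, the exchanger that brings in glutamine, were also lower in WTHK2-labelled libraries than in EV. Slc1a3 had 113, 94.1 and 101 CPM in WTHK2-labelled libraries against 121, 119 and 122 CPM in EV (log2 fold change -0.23, SE 0.0546, adjusted p = 0.00166), and Slc1a5 had 196, 171 and 188 CPM in WTHK2-labelled libraries against 211, 205 and 219 CPM in EV (log2 fold change -0.19, SE 0.0459, adjusted p = 0.00189). Slc7a6, an exchanger of basic and neutral amino acids, was at -0.23 (adjusted p = 0.0316), a call lost on leaving out EV replicate 1 or 2 or WTHK2 replicate 2 or 3 (adjusted p = 0.0503 to 0.134) or with that rescaling (adjusted p = 0.0596). Slc38a10 was at -0.10 (adjusted p = 0.0338), lost without any EV library or without WTHK2 replicate 1 or 2 (adjusted p = 0.0504 to 0.189) and with that rescaling (adjusted p = 0.177). It was at -0.02 in LAC (adjusted p = 0.760).

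A few amino acid carriers went another way. Slc43a2, which lets neutral amino acids out of the cell, was the only member of its class that rose in WTHK2-labelled libraries, at 51.2, 49.9 and 47.2 CPM in WTHK2-labelled libraries, 35.7, 38.0 and 40.5 CPM in LAC, and 41.1, 35.2 and 39.0 CPM in EV. The WTHK2-labelled values lay above all others, and LAC and EV overlapped (log2 fold change 0.36, SE 0.0707, adjusted p = 4.04e-04 in WTHK2 against EV). Slc3a2, the heavy chain that carries several Slc7 light chains to the cell surface, rose in LAC and stood at 241, 225 and 233 CPM in WTHK2-labelled libraries, 249, 255 and 260.3 CPM in LAC, and 231, 233 and 234 CPM in EV. The LAC values lay above all others (log2 fold change 0.13, SE 0.0377, adjusted p = 0.00782), while WTHK2 against EV gave 0.002 (adjusted p = 0.974, 95% interval -0.08 to 0.08). Slc6a6, the taurine carrier, fell to 249, 246 and 224 CPM in LAC, against 273, 266 and 281 CPM in EV (log2 fold change -0.19, SE 0.0446, adjusted p = 0.00170). Slc38a2, which imports small neutral amino acids such as glutamine and alanine, also fell, to 345, 351 and 328 CPM in LAC, against 392, 366 and 378 CPM in EV (log2 fold change -0.15, SE 0.0396, adjusted p = 0.00407). In WTHK2-labelled libraries it was at -0.09 (adjusted p = 0.0584), which passed in the fit with the replicate number as a block (adjusted p = 0.0274). Slc36a1, a proton-coupled carrier of small amino acids in lysosomes, was at -0.29 in LAC (adjusted p = 0.00918), lost on leaving out EV replicate 2 or LAC replicate 1 (adjusted p = 0.0664 to 0.0743).

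**Figure D2:**
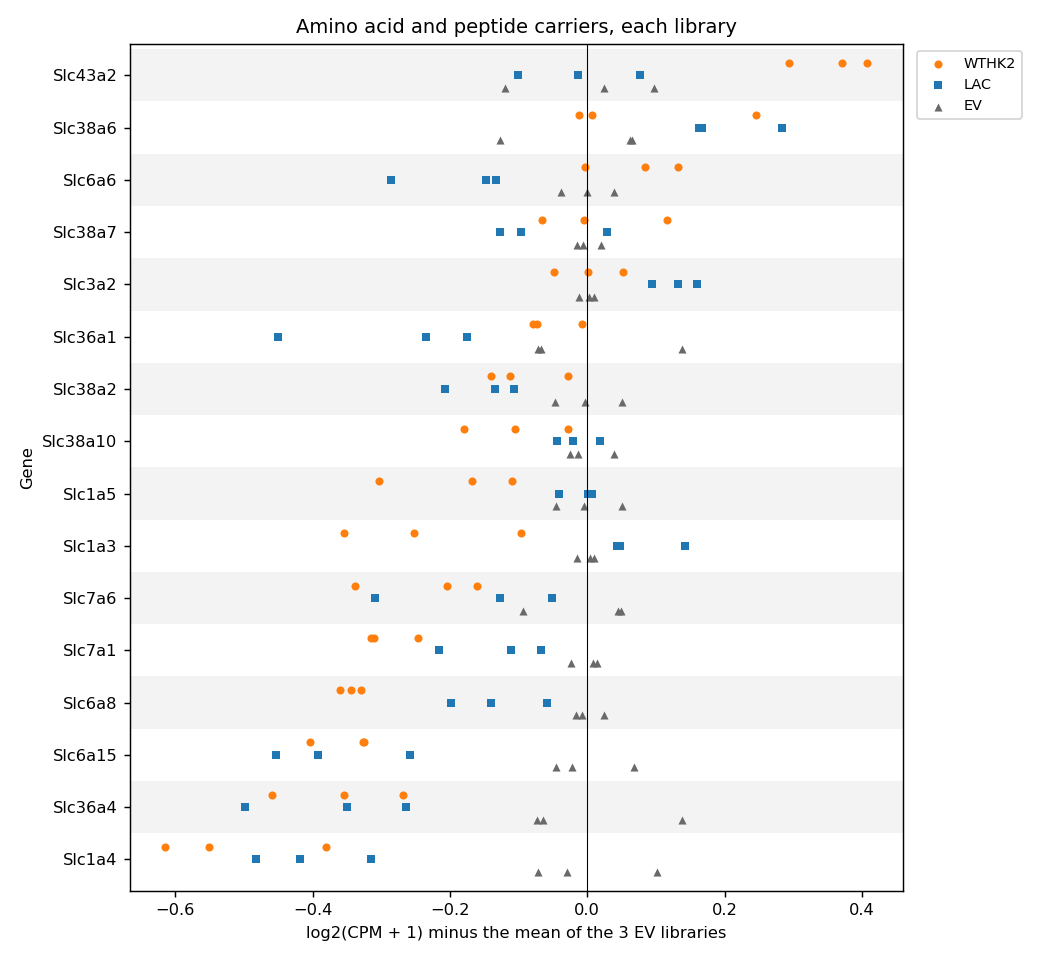
The 16 amino acid and peptide carriers in each of the 9 libraries, as log2(CPM + 1) minus the mean of the EV libraries (horizontal axis), with WTHK2 (circles) above LAC (squares) and EV (triangles) in each row. Slc1a4, Slc6a15 and Slc36a4 lie left of every EV library in both groups, and Slc43a2 lies right of EV in WTHK2 only.

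Metal carriers split between rises and falls. Of 18, 3 were higher and 5 lower in WTHK2-labelled libraries and 4 higher and 7 lower in LAC, beside 21.0% and 25.4%, and 22.4% and 27.1%, over all genes. Without EV replicate 1 or without WTHK2 replicate 3 the WTHK2 split was 3 higher and 2 lower, while all genes gave 16.6% higher and 20.2% lower, or 18.5% and 22.5%. With libraries set to an equal median it was 5 higher and 2 lower, where all genes gave 27.1% and 20.2%. Zinc carriers made up most of the class, and those of the SLC39 family, which bring zinc into the cytosol, went both ways. Slc39a3 rose to 51.0, 47.6 and 54.2 CPM in WTHK2-labelled libraries and 50.1, 48.0 and 44.5 CPM in LAC, against 37.9, 41.9 and 41.3 CPM in EV. Both groups lay above EV, with 0.33 (SE 0.0678, adjusted p = 6.25e-04) in WTHK2-labelled libraries and 0.23 (adjusted p = 0.00846) in LAC, a LAC call that did not hold without EV replicate 1 (adjusted p = 0.0559). Slc39a13, which acts in the secretory pathway, rose to 135, 121 and 119.8 CPM in WTHK2-labelled libraries, against 111, 100.3 and 104 CPM in EV (log2 fold change 0.25, SE 0.0583, adjusted p = 0.00182). In LAC it was at 0.16 (adjusted p = 0.0248), lost on leaving out EV replicate 2 or 3 or LAC replicate 1 (adjusted p = 0.0681 to 0.160).

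Slc39a7, which releases zinc from the endoplasmic reticulum, rose to 302, 287 and 298 CPM in LAC, against 259.5, 256 and 270.1 CPM in EV (log2 fold change 0.17, SE 0.0382, adjusted p = 9.38e-04). In WTHK2-labelled libraries it was at 0.08 (adjusted p = 0.0965), which passed with libraries set to an equal median (adjusted p = 0.0241). Slc39a10, a zinc importer of the plasma membrane, fell in both groups. It stood at 71.7, 70.3 and 71.9 CPM in WTHK2-labelled libraries, 64.6, 72.0 and 60.5 CPM in LAC, and 81.6, 81.9 and 83.4 CPM in EV, with no overlap between EV and either group, at -0.20 (adjusted p = 0.00683) and -0.32 (adjusted p = 1.40e-04). Slc30a4, which loads zinc into vesicles, fell likewise, with log2 fold changes of -0.18 (adjusted p = 0.00542) in WTHK2-labelled libraries and -0.27 (adjusted p = 2.21e-04) in LAC. Slc41a1, a magnesium carrier, fell to 110.0, 114 and 109 CPM in LAC, against 129, 125 and 122 CPM in EV (log2 fold change -0.17, SE 0.0454, adjusted p = 0.00362). In WTHK2-labelled libraries it was at -0.14 (adjusted p = 0.0178), lost on leaving out EV replicate 1 or WTHK2 replicate 3 (adjusted p = 0.0817 to 0.0821) and with library medians set equal (adjusted p = 0.0680). Slc22a17, placed here because it binds the iron-carrying protein lipocalin 2, had the largest rise of all members in WTHK2-labelled libraries. It stood at 40.1, 35.9 and 38.0 CPM in WTHK2-labelled libraries, 41.5, 33.5 and 34.4 CPM in LAC, and 26.7, 29.2 and 30.0 CPM in EV, above EV in all 6 other libraries, with 0.40 (SE 0.0814, adjusted p = 5.71e-04) and 0.33 (SE 0.0814, adjusted p = 0.00212).

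The remaining calls in the class were falls of zinc carriers. Slc39a8, which also takes up manganese, and Slc39a9, of the Golgi apparatus, fell in LAC, with log2 fold changes of -0.17 (adjusted p = 0.00457) and -0.23 (adjusted p = 0.00218). In WTHK2-labelled libraries they were at -0.11 (adjusted p = 0.0480) and -0.14 (adjusted p = 0.0452). Those WTHK2 calls were lost on leaving out EV replicate 1, WTHK2 replicate 2 or 3 or LAC replicate 3, for Slc39a8 also without EV replicate 2 and for Slc39a9 without EV replicate 3 (adjusted p = 0.0537 to 0.182 for Slc39a8 and adjusted p = 0.0529 to 0.197 for Slc39a9), and with library medians set equal (adjusted p = 0.169 and adjusted p = 0.132). Slc30a5, which loads zinc into the secretory pathway, was at -0.16 in LAC (adjusted p = 0.0158), lost on leaving out EV replicate 3 or LAC replicate 1 or 3 (adjusted p = 0.0576 to 0.0824) and with library medians set equal (adjusted p = 0.0593). Slc30a9 was at -0.19 in LAC (adjusted p = 0.0283), lost on leaving out EV replicate 1 or LAC replicate 1 (adjusted p = 0.158 to 0.198) and with library medians set equal (adjusted p = 0.0711).

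**Figure D3:**
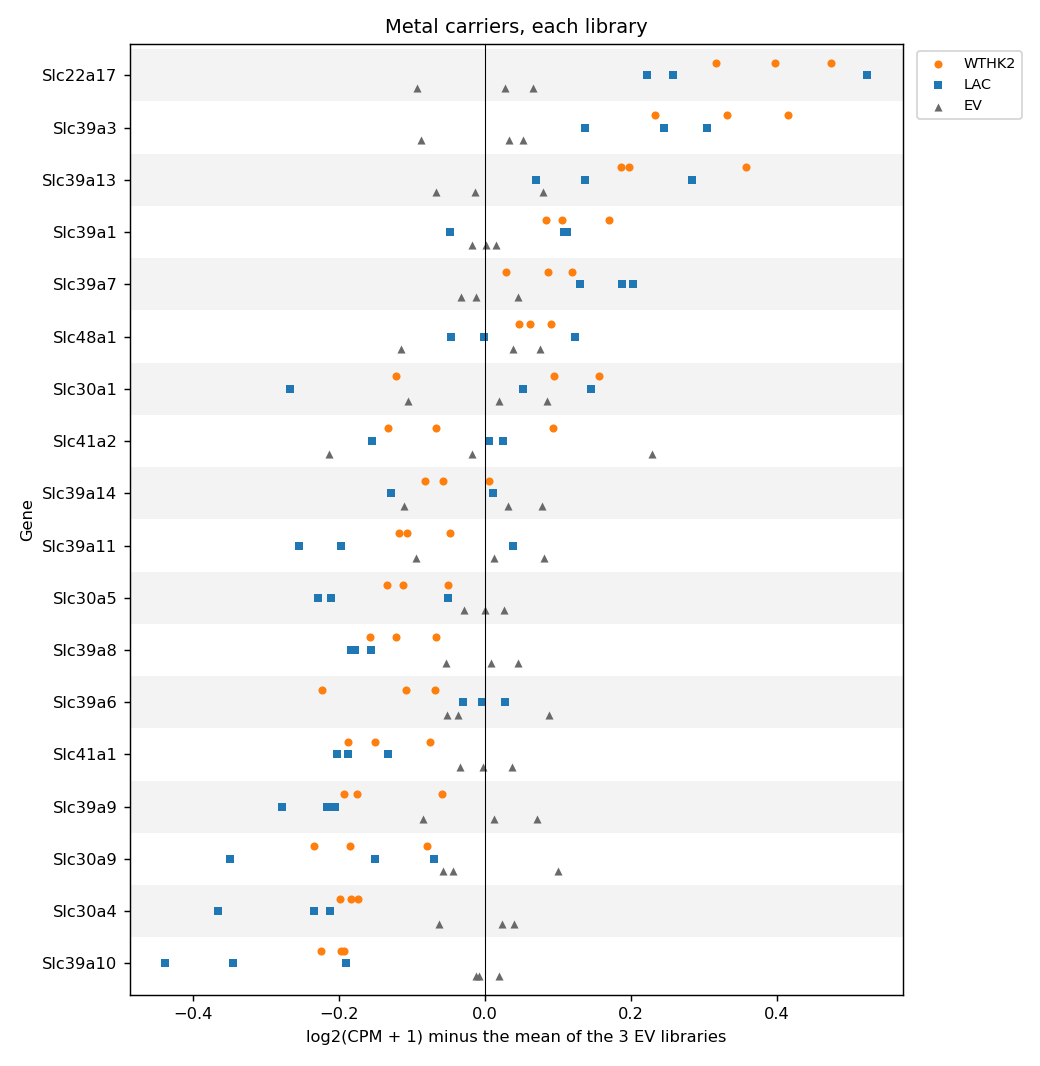
The 18 metal carriers in each of the 9 libraries, as log2(CPM + 1) minus the mean of the EV libraries (horizontal axis), with WTHK2 (circles) above LAC (squares) and EV (triangles) in each row. Slc22a17 and Slc39a3 lie right of every EV library in both groups, and Slc30a4 and Slc39a10 lie left of them.

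Of the nucleotide sugar carriers of the Slc35a subfamily, 1 of 3 was called, lower in LAC, where all genes gave 27.1% lower. The 3 members were SLC35A1, which carries CMP-sialic acid, Slc35a3, which carries UDP-N-acetylglucosamine, and Slc35a4. In WTHK2-labelled libraries 0 of 3 passed limma's test, 0 had an unadjusted p under 0.05, and voom on recovered reads also called 0. Slc35a3 stood at 45.4, 48.5 and 44.3 CPM in WTHK2-labelled libraries, 43.5, 48.1 and 39.7 CPM in LAC, and 49.0, 55.1 and 47.3 CPM in EV, and all 3 groups overlapped. Its log2 fold change was -0.13 in WTHK2-labelled libraries (adjusted p = 0.169) and -0.20 in LAC (adjusted p = 0.0288), the LAC call being lost on leaving out EV replicate 2 or LAC replicate 1 or 3 (adjusted p = 0.0564 to 0.176) and with libraries set to an equal median (adjusted p = 0.0669). Slc35a4 was at 0.01 in WTHK2-labelled libraries, with a 95% interval of -0.13 to 0.15. Of the 9 Slc35 genes of subfamilies b to g, which the naming rule does not take, 2 were higher and 1 lower in WTHK2-labelled libraries and 1 was higher and 1 lower in LAC, beside 21.0% higher and 25.4% lower, and 22.4% higher and 27.1% lower, over all genes. Slc35b1, which brings ATP into the endoplasmic reticulum in exchange for ADP, stood at 142, 139.6 and 142 CPM in WTHK2-labelled libraries, 123, 111 and 119 CPM in LAC, and 102, 108 and 112 CPM in EV. The WTHK2-labelled values lay above all others (log2 fold change 0.39, SE 0.0479, adjusted p = 2.43e-06), and in LAC it was at 0.13 (adjusted p = 0.0277), lost on leaving out EV replicate 1 or 2 or LAC replicate 1 or 3 (adjusted p = 0.0549 to 0.153). Slc35e4 was at 0.28 in WTHK2-labelled libraries (adjusted p = 0.00341). Slc35e3 was at -0.21 there (adjusted p = 0.0138), lost on leaving out EV replicate 1 or WTHK2 replicate 2 (adjusted p = 0.0594 to 0.0650). Slc35f5 fell in LAC, at -0.25 (adjusted p = 0.00566). WTHK2-labelled libraries differed from LAC at 0.26 for Slc35b1 (adjusted p = 6.49e-04) and -0.22 for Slc35c2 (adjusted p = 0.00431).

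Mitochondrial SLC25 carriers had few falls in either group. Of 21, 5 rose and 1 fell in WTHK2-labelled libraries, with a median log2 fold change of 0.04, and 7 rose and 1 fell in LAC, with a median of 0.09. All genes gave 21.0% higher and 25.4% lower in WTHK2-labelled libraries and 22.4% higher and 27.1% lower in LAC. The class had 23.8% higher and 4.76% lower in WTHK2-labelled libraries and 33.3% higher and 4.76% lower in LAC. With libraries set to an equal median the counts were 6 higher and 0 lower in WTHK2-labelled libraries and 9 higher and 1 lower in LAC. All genes gave 27.1% and 30.4% higher and 20.2% and 21.5% lower under that scaling. The LAC count was 4 higher and 1 lower without EV replicate 1, 3 higher and 0 lower without EV replicate 2, 3 higher and 0 lower without LAC replicate 1 and 4 higher and 1 lower without LAC replicate 3. All genes then gave 18.2%, 17.0%, 17.1% and 18.1% higher in the same order, so the share of rises in LAC was no longer above the background by more than 1 gene. Over all genes 22.6%, 22.2%, 23.1% and 23.4% were then lower. Replicate 1 of both WTHK2 and LAC, in which the median of mitochondrially encoded transcripts stood highest, was also left out. The WTHK2 count was then 6 higher and 1 lower, where all genes gave 19.3% and 24.3%. In LAC it was 3 higher and 1 lower, where all genes gave 19.9% and 25.3%. Summed CPM of the family was 2161, 2185 and 2187 CPM in WTHK2-labelled libraries, 2209.7, 2129 and 2198 CPM in LAC, and 2061, 2073 and 2033 CPM in EV. It was higher in every WTHK2-labelled and LAC library than in EV. Slc25a3 and Slc25a39, which averaged 627 and 353 CPM over all libraries, weigh heavily in this sum, so it does not show a rise across the family. The median of the mitochondrially encoded transcripts given above was also higher in those libraries, and its part in this result was not tested.

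Slc25a3, the phosphate carrier that feeds ATP synthesis, stood at 626, 641 and 640.0 CPM in WTHK2-labelled libraries, 660.4, 633 and 653 CPM in LAC, and 615, 594 and 581 CPM in EV. Every WTHK2-labelled and LAC library lay above every EV library, with 0.12 in LAC (adjusted p = 0.00520) and 0.09 in WTHK2-labelled libraries (adjusted p = 0.0286). The WTHK2 call was lost on leaving out EV replicate 2 or 3 or WTHK2 replicate 2 or 3 (adjusted p = 0.0724 to 0.129) and under quantile normalization (adjusted p = 0.0757).

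Other SLC25 carriers rose in 1 group. Slc25a1, which exports citrate from the matrix, rose to 89.5, 87.8 and 93.3 CPM in WTHK2-labelled libraries, against 74.0, 81.3 and 75.4 CPM in EV (log2 fold change 0.23, SE 0.0528, adjusted p = 0.00158). Slc25a39, which brings glutathione into mitochondria, rose to 364, 383 and 381 CPM in WTHK2-labelled libraries, against 328, 343 and 331 CPM in EV (log2 fold change 0.17, SE 0.0351, adjusted p = 6.23e-04). In LAC it was at 0.06 (adjusted p = 0.131), which passed with libraries set to an equal median (adjusted p = 0.0195). Slc25a22, a glutamate carrier, was at 0.16 in WTHK2-labelled libraries (adjusted p = 0.0204), lost on leaving out EV replicate 3 or WTHK2 replicate 1 (adjusted p = 0.106 in both). Slc25a28, also called mitoferrin-2, an iron importer of mitochondria, rose to 116, 102 and 103 CPM in LAC, against 87.5, 91.4 and 90.8 CPM in EV (log2 fold change 0.25, SE 0.0572, adjusted p = 0.00138). Slc25a33, a pyrimidine nucleotide carrier, was at 0.18 in LAC (adjusted p = 0.0435), lost on leaving out EV replicate 1 or 2, WTHK2 replicate 2 or LAC replicate 1 or 3 (adjusted p = 0.0530 to 0.188). Slc25a20, which carries acylcarnitines for fatty acid oxidation, was at 0.16 in LAC (adjusted p = 0.0195), lost on leaving out EV replicate 2 or LAC replicate 1 (adjusted p = 0.0671 to 0.112). The dicarboxylate carrier Slc25a10 and the iron importer Slc25a37, mitoferrin-1, were at 0.12 (adjusted p = 0.0425) and 0.12 (adjusted p = 0.0388) in LAC, both lost without any EV library or LAC replicate 1 or 3 (adjusted p = 0.0751 to 0.175 and adjusted p = 0.0726 to 0.150). The fall in WTHK2-labelled libraries was that of Slc25a30, at -0.20 (adjusted p = 0.0486), lost without any EV library or WTHK2 replicate 2 or 3 (adjusted p = 0.0696 to 0.195) and with library medians set equal (adjusted p = 0.0960). The fall in LAC was that of Slc25a24, which exchanges ATP-magnesium for phosphate, at -0.21 (adjusted p = 0.0157), lost on leaving out EV replicate 2 or LAC replicate 1 (adjusted p = 0.0607 to 0.104) and under quantile normalization (adjusted p = 0.0527).

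**Figure D4:**
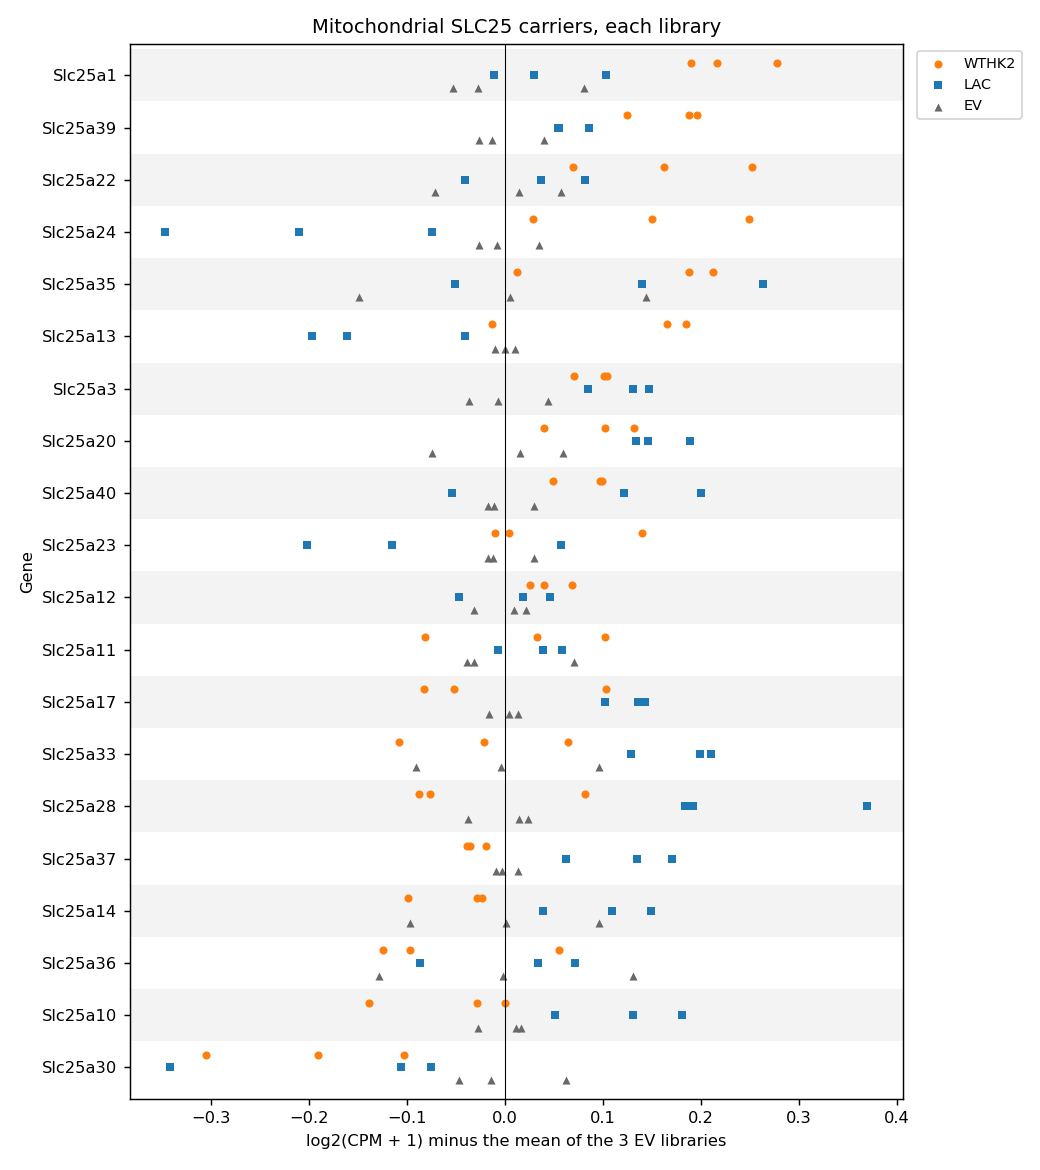
Values of 20 SLC25 carriers in each of the 9 libraries, as log2(CPM + 1) minus the mean of the EV libraries (horizontal axis), with WTHK2 (circles) above LAC (squares) and EV (triangles) in each row. Slc25a3 lies right of every EV library in both groups, Slc25a1 in WTHK2 only and Slc25a28 in LAC only.

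Among 6 carriers of sugars and monocarboxylates 1 was called, higher in both comparisons with EV. All genes gave 46.4% and 49.5% called, with 21.0% and 22.4% higher. The called carrier was Slc50a1, which lets sugars out of the cell. It stood at 57.9, 48.6 and 46.2 CPM in WTHK2-labelled libraries, 56.1, 48.4 and 53.7 CPM in LAC, and 42.2, 39.0 and 45.1 CPM in EV, with neither group overlapping EV. The log2 fold change was 0.32 in LAC (SE 0.0797, adjusted p = 0.00273) and 0.26 in WTHK2-labelled libraries (adjusted p = 0.0107), with the call lost there without EV replicate 2 or WTHK2 replicate 1 (adjusted p = 0.0684 to 0.0821). Slc16a1, also called MCT1, the monocarboxylate carrier through which lactate crosses the plasma membrane, was named for its substrate. It stood at 228, 202 and 206 CPM in WTHK2-labelled libraries, 225, 215 and 215 CPM in LAC, and 225, 226 and 224 CPM in EV. LAC overlapped EV, with a log2 fold change of -0.04 (adjusted p = 0.422) and a 95% interval of -0.13 to 0.05. In WTHK2-labelled libraries it was at -0.09 (adjusted p = 0.100), and without WTHK2 replicate 1, the highest of that group, the value was -0.14 and passed (adjusted p = 0.00643).

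Of 11 inorganic ion carriers, 1 was higher and 3 lower in WTHK2-labelled libraries and 2 higher and 4 lower in LAC. All genes gave 21.0% and 25.4%, and 22.4% and 27.1%, so these counts lay near the background. Slc9a5, a sodium-proton exchanger, had the largest rise of all members in LAC and stood at 64.9, 51.4 and 56.8 CPM in WTHK2-labelled libraries, 77.4, 65.4 and 73.2 CPM in LAC, and 48.0, 50.8 and 52.1 CPM in EV. LAC lay above all other libraries (log2 fold change 0.51, SE 0.0750, adjusted p = 2.22e-05). In WTHK2-labelled libraries it overlapped EV and was at 0.19 (adjusted p = 0.0450), lost without any EV library, WTHK2 replicate 1 or 3 or LAC replicate 3 (adjusted p = 0.0555 to 0.270). The value was then as low as 0.10 (without WTHK2 replicate 1).

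Cation-chloride cotransporters, which set chloride and cell volume, were in the same class. Slc12a7, a potassium-chloride cotransporter, stood at 117, 108 and 114 CPM in WTHK2-labelled libraries, 118, 119 and 119.8 CPM in LAC, and 132, 134 and 133 CPM in EV, and each group kept apart from EV. Its log2 fold change was -0.24 in WTHK2-labelled libraries (adjusted p = 2.10e-04) and -0.16 in LAC (adjusted p = 0.00501). Slc12a2, the cotransporter of sodium, potassium and chloride, was at -0.23 in WTHK2-labelled libraries (adjusted p = 0.0187), lost on leaving out EV replicate 1 or 3 or WTHK2 replicate 1 or 2 (adjusted p = 0.0526 to 0.0794). In LAC it was at -0.22 (adjusted p = 0.0218), lost on leaving out EV replicate 1 or 3 or LAC replicate 3 (adjusted p = 0.0573 to 0.131) and with libraries set to an equal median (adjusted p = 0.0530). Slc12a5, a potassium-chloride cotransporter best known from neurons, rose to 33.5, 30.0 and 31.3 CPM in LAC, against 26.1, 24.1 and 25.6 CPM in EV (log2 fold change 0.31, SE 0.0918, adjusted p = 0.00812). Slc4a7, which brings in sodium with bicarbonate, was at -0.22 in LAC (adjusted p = 0.00756), lost on leaving out EV replicate 3 or LAC replicate 3 (adjusted p = 0.0509 to 0.0573).

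Of 13 carriers of nucleosides, vitamins, choline and lipids, 3 were higher and 3 lower in WTHK2-labelled libraries and 1 higher and 5 lower in LAC. Over all genes 21.0% were higher and 25.4% lower in WTHK2-labelled libraries, close to the class, and 22.4% higher and 27.1% lower in LAC. Slc44a1, a choline carrier, had the largest fall of all members in LAC. It stood at 35.1, 40.1 and 46.1 CPM in WTHK2-labelled libraries, 30.6, 41.8 and 34.2 CPM in LAC, and 54.6, 61.3 and 54.4 CPM in EV. The values within the LAC and the WTHK2-labelled group spread more widely than those of EV but did not overlap with them, at -0.67 in LAC (SE 0.0975, adjusted p = 1.84e-05) and -0.49 in WTHK2-labelled libraries (SE 0.0975, adjusted p = 4.57e-04). The equilibrative nucleoside carriers Slc29a1 and Slc29a2 went opposite ways. Slc29a1 stood at 119, 123 and 122 CPM in WTHK2-labelled libraries, 131, 124 and 127 CPM in LAC, and 138, 141 and 141 CPM in EV, below EV in both groups, at -0.21 (adjusted p = 4.35e-04) and -0.14 (adjusted p = 0.00958). The LAC call was lost with libraries set to an equal median (adjusted p = 0.0678). Slc29a2 stood at 38.1, 32.7 and 31.6 CPM in WTHK2-labelled libraries, 38.1, 37.9 and 37.8 CPM in LAC, and 28.2, 27.4 and 30.1 CPM in EV, above EV in both groups, at 0.40 in LAC (adjusted p = 2.51e-04) and 0.24 in WTHK2-labelled libraries (adjusted p = 0.0119). The WTHK2 call was lost on leaving out EV replicate 2 or WTHK2 replicate 1 (adjusted p = 0.0562 to 0.0902).

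Within the same class, Slc23a2, a sodium-coupled vitamin C importer, fell in both groups, at -0.30 in WTHK2-labelled libraries (adjusted p = 0.00357) and -0.28 in LAC (adjusted p = 0.00534), the LAC call being lost without LAC replicate 3 (adjusted p = 0.0504). Slc27a3, an acyl-CoA synthetase of the fatty acid transport family, rose to 41.2, 37.0 and 41.4 CPM in WTHK2-labelled libraries, against 30.4, 30.5 and 32.4 CPM in EV (log2 fold change 0.35, SE 0.0687, adjusted p = 3.98e-04). Slc22a15, an organic ion carrier, rose to 43.0, 38.7 and 35.1 CPM in WTHK2-labelled libraries, against 29.4, 29.6 and 33.9 CPM in EV (log2 fold change 0.32, SE 0.0876, adjusted p = 0.00549). Slc22a23, a member of the organic ion family with no settled substrate, fell to 68.3, 63.6 and 58.5 CPM in LAC, against 80.3, 79.8 and 79.2 CPM in EV (log2 fold change -0.33, SE 0.0594, adjusted p = 1.61e-04). Slc33a1, which brings acetyl-CoA into the endoplasmic reticulum, was at -0.24 in LAC (adjusted p = 0.0228), lost on leaving out EV replicate 1 or 2 or LAC replicate 2 (adjusted p = 0.0607 to 0.121) and with libraries set to an equal median (adjusted p = 0.0530).

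Few members stood outside these classes. Slc12a9, an orphan relative of the cation-chloride cotransporters, rose in WTHK2-labelled libraries by 0.26 (adjusted p = 0.00622) and was at 0.11 in LAC (adjusted p = 0.228). Slc17a5, the lysosomal exporter of sialic acid, was at 0.01 in LAC (adjusted p = 0.966). Among the genes that match by name only, Slc9a3r1, a scaffold protein that anchors sodium-proton exchangers, rose in WTHK2-labelled libraries by 0.16 (adjusted p = 0.00678). Slc7a6os, a factor for nuclear import of RNA polymerase II, stood at 44.5, 40.7 and 36.1 CPM in WTHK2-labelled libraries, 37.1, 39.4 and 42.2 CPM in LAC, and 32.5, 34.4 and 33.6 CPM in EV. It rose by 0.26 in WTHK2-labelled libraries (adjusted p = 0.00861; without WTHK2 replicate 1 adjusted p = 0.0583) and by 0.23 in LAC (adjusted p = 0.0155; lost on leaving out EV replicate 1 or LAC replicate 3, adjusted p = 0.0613 to 0.0836). Slc7a6os is named for lying opposite Slc7a6, its neighbour on the RefSeq assembly CriGri-PICRH-1.0. Whether the pair overlaps was not computed, and strand use in counting is not given in the sources used here. Reads of the pair may therefore not have been told apart, and both values are uncertain.

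The direct comparison of WTHK2-labelled libraries with LAC addressed where the groups differ from each other, and it does not use the EV values except for the shared estimate of spread. Of the 93 members 9 were higher and 9 lower in WTHK2-labelled libraries than in LAC, beside 8.37% and 7.76% over all genes (18 called, beside 16.1%), and no member reached 1.5-fold. At 1.2-fold or more 5 were higher and 3 lower, beside 3.04% and 1.85% of all genes. Without regard to the test, 16 lay above and 17 below LAC with no overlap, beside 14.5% each way and 29.0% in all. The counts changed on leaving out single libraries, as did those over all genes. Without WTHK2 replicate 3, 5 were higher, where all genes gave 4.93% higher. Lower members numbered 14 without WTHK2 replicate 1 and 5 without WTHK2 replicate 2, where all genes gave 9.31% and 5.20% lower. Amino acid carriers gave 2 higher and 5 lower of 16, with 2 lower without WTHK2 replicate 2. SLC25 carriers gave 4 higher and 3 lower of 21, or 1 higher and 2 lower without WTHK2 replicate 3. Of the 18 metal carriers limma called 0, voom on recovered reads also called 0, and 2 had an unadjusted p under 0.05.

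Slc22a23 differed most, with 90.3, 80.0 and 84.2 CPM in WTHK2-labelled libraries and 68.3, 63.6 and 58.5 CPM in LAC (log2 fold change 0.41, SE 0.0594, adjusted p = 5.09e-05). The lowest WTHK2-labelled library lay above the highest of LAC. Slc43a2 was also higher in WTHK2-labelled libraries, by 0.37 (SE 0.0707, adjusted p = 9.88e-04), as was Slc25a24, which had 60.3, 65.7 and 70.5 CPM in WTHK2-labelled libraries and 46.3, 51.0 and 56.1 CPM in LAC (log2 fold change 0.35, SE 0.0689, adjusted p = 0.00119). Slc6a6 was higher by 0.26 (adjusted p = 3.60e-04). Slc22a15 was higher by 0.31 (adjusted p = 0.0178), lost without WTHK2 replicate 1 or 2 or LAC replicate 2 (adjusted p = 0.0503 to 0.0777), and Slc27a3 by 0.27 (adjusted p = 0.00964), lost without WTHK2 replicate 3 (adjusted p = 0.0560). Slc25a39 was at 0.10 (adjusted p = 0.0466), lost without any library but WTHK2 replicate 1 (adjusted p = 0.0615 to 0.153). Slc25a13, an aspartate-glutamate carrier that takes part in moving reducing equivalents into mitochondria, was at 0.25 (adjusted p = 0.0112), lost without WTHK2 replicate 2 or 3 or LAC replicate 3 (adjusted p = 0.0503 to 0.0676). Slc25a1 was at 0.19 (adjusted p = 0.0181), lost without WTHK2 replicate 3 or LAC replicate 1 (adjusted p = 0.0736 to 0.0937).

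Among members lower in WTHK2-labelled libraries than in LAC, Slc9a5 was at -0.32 (SE 0.0750, adjusted p = 0.00584) and Slc1a3 at -0.31 (SE 0.0546, adjusted p = 4.43e-04), with 113, 94.1 and 101 CPM in WTHK2-labelled libraries and 133, 124 and 125 CPM in LAC. For both genes every WTHK2-labelled library lay below every LAC library. Slc25a28 was at -0.28 (adjusted p = 0.00211) and Slc6a8 at -0.21 (adjusted p = 0.00754). Slc1a5 was at -0.18 (adjusted p = 0.00896), lost without WTHK2 replicate 2 (adjusted p = 0.0704). Slc7a1 was at -0.16 (adjusted p = 0.0209), lost without WTHK2 replicate 2 or LAC replicate 1 (adjusted p = 0.0758 to 0.102). Slc3a2 was at -0.13 (adjusted p = 0.0242), lost without WTHK2 replicate 2 or 3 or LAC replicate 3 (adjusted p = 0.0728 to 0.120). Slc25a10 was at -0.18 (adjusted p = 0.0149), lost without WTHK2 replicate 2 or LAC replicate 1 or 3 (adjusted p = 0.0574 to 0.0973), and Slc25a37 at -0.15 (adjusted p = 0.0310), lost without WTHK2 replicate 2 or 3 or LAC replicate 1 or 3 (adjusted p = 0.0880 to 0.123). The abundant carriers Slc25a3, Slc38a10, Slc38a2 and Slc39a7 did not pass, at -0.03, -0.09, 0.06 and -0.10, although Slc39a7 passed without LAC replicate 2 (adjusted p = 0.0481).

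**Figure D5:**
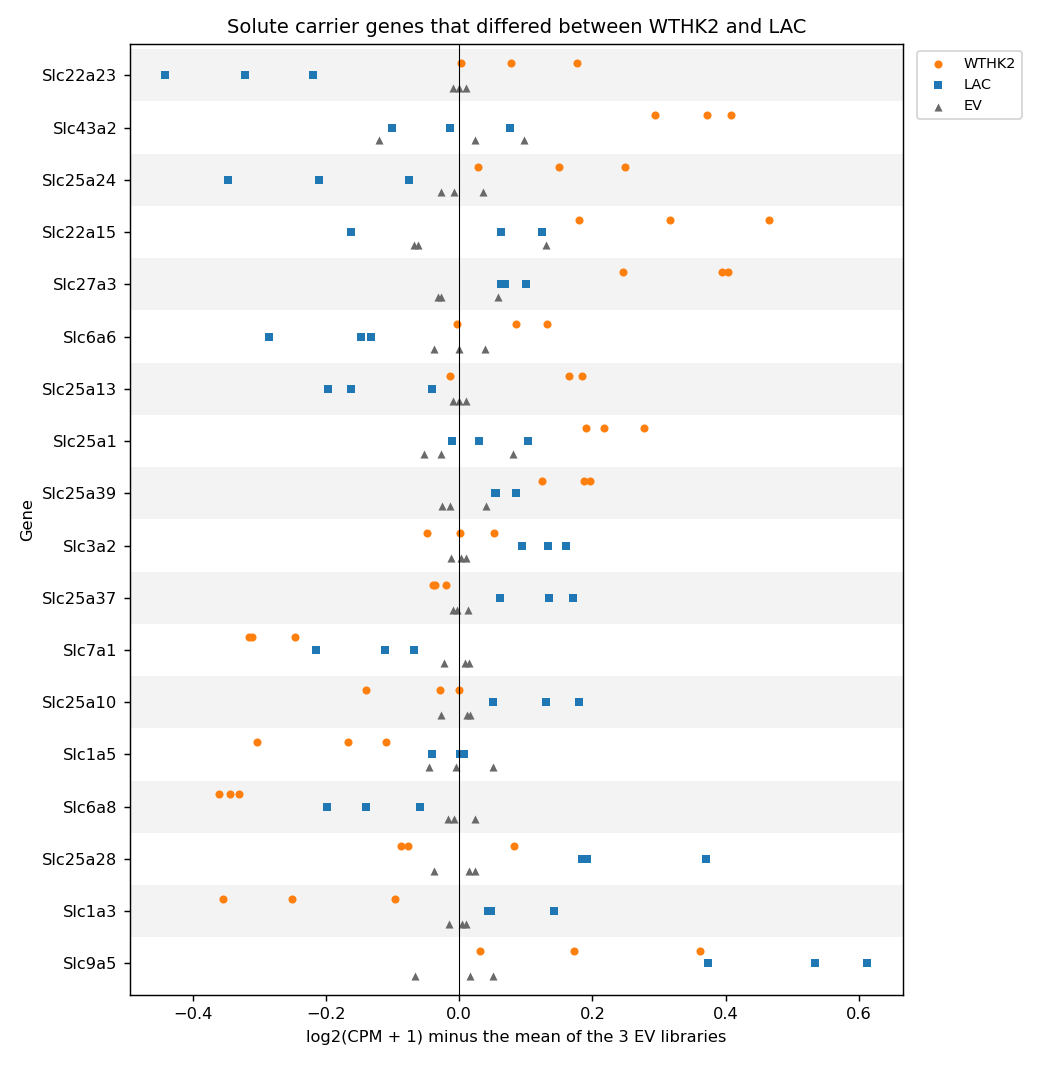
The 18 solute carrier genes that differed between WTHK2 and LAC, in each of the 9 libraries, as log2(CPM + 1) minus the mean of the EV libraries (horizontal axis), with WTHK2 (circles) above LAC (squares) and EV (triangles). Slc22a23 is highest in the list by its difference and Slc9a5 lowest, and for Slc9a5 LAC lies right of both other groups.

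In all, 36 of the 93 members were called in none of the 3 comparisons. The share of all genes called in none was not computed, so this count has no background beside it. These members had log2 fold changes from -0.17 to 0.14 in WTHK2-labelled libraries and from -0.21 to 0.20 in LAC, each against EV. They include 5 of the 6 sugar and monocarboxylate carriers (Slc16a1, Slc37a3, Slc37a4, Slc45a1 and Slc45a4) and 7 of the 18 metal carriers (Slc30a1, Slc39a1, Slc39a6, Slc39a11, Slc39a14, Slc41a2 and the haem carrier Slc48a1). Another 8 were SLC25 carriers, namely Slc25a11, the oxoglutarate-malate carrier, Slc25a12, an aspartate-glutamate carrier, Slc25a14, Slc25a17, Slc25a23, Slc25a35, Slc25a36 and Slc25a40. The phosphate importers Slc20a1 and Slc20a2, the folate carrier SLC19A1 and the multivitamin carrier Slc5a6 were also among them. The other 12 were Slc4a2, Slc12a4, Slc26a6, Slc27a1, Slc27a4, Slc44a2, Slc38a6, Slc38a7, SLC35A1, Slc35a4, Slc17a5 and Slc4a1ap.

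Transport proteins outside the naming rule were counted on 3 further lists. Of 18 listed genes for solute carriers under other names, 4 were higher and 2 lower in WTHK2-labelled libraries and 4 were higher and 1 lower in LAC. The background was 21.0% higher and 25.4% lower, and 22.4% and 27.1%, so the rises matched it. Mfsd12, a cysteine importer of lysosomes and melanosomes, rose to 51.6, 43.4 and 49.3 CPM in WTHK2-labelled libraries, against 31.6, 34.4 and 34.7 CPM in EV (log2 fold change 0.50, SE 0.0762, adjusted p = 2.88e-05). In LAC it was at 0.21 (adjusted p = 0.0275), lost on leaving out EV replicate 1 or LAC replicate 1 (adjusted p = 0.124 to 0.153). WTHK2-labelled libraries lay above LAC at 0.29 (adjusted p = 0.0114), lost without WTHK2 replicate 3 or LAC replicate 3 (adjusted p = 0.0540 to 0.0590). Mpc2, a subunit of the mitochondrial pyruvate carrier, rose to 34.5, 31.9 and 34.9 CPM in WTHK2-labelled libraries and 34.4, 35.7 and 31.8 CPM in LAC, against 28.0, 27.1 and 29.7 CPM in EV. Its log2 fold changes were 0.25 (adjusted p = 0.00831) and 0.26 (adjusted p = 0.00621). Sfxn1, a serine carrier of mitochondria, and its relative Sfxn3 fell in WTHK2-labelled libraries, at -0.16 (adjusted p = 0.00302) and -0.20 (adjusted p = 8.91e-04). The LAC count was 1 higher and 1 lower without EV replicate 1, where all genes gave 18.2% and 22.6%. It was 2 higher and 0 lower without LAC replicate 1, where all genes gave 17.1% and 23.1%. Mtch1 at 0.12 (adjusted p = 0.0153) and Mfsd5 at 0.16 (adjusted p = 0.0271) were among the calls lost without single libraries (adjusted p = 0.0658 to 0.0761 and adjusted p = 0.0742 to 0.135).

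Of 12 listed ABC transporters, which use ATP directly, 3 were higher and 5 lower in WTHK2-labelled libraries and 1 was higher and 4 lower in LAC, beside 21.0% higher and 25.4% lower, and 22.4% higher and 27.1% lower, over all genes. Without WTHK2 replicate 1 the ABC count in the WTHK2 comparison was 1 higher and 5 lower, where all genes gave 17.8% and 22.7%. Abca1, which exports cholesterol, stood at 39.7, 38.5 and 44.1 CPM in WTHK2-labelled libraries, 24.9, 32.5 and 23.8 CPM in LAC, and 46.9, 56.8 and 51.7 CPM in EV. The groups did not overlap, and it fell in LAC (log2 fold change -0.92, SE 0.0953, adjusted p = 8.01e-07). In WTHK2-labelled libraries it was at -0.34 (adjusted p = 0.00688; without EV replicate 2 adjusted p = 0.0540), higher than in LAC by 0.58 (adjusted p = 2.19e-04). Abcc4, an exporter of organic anions and cyclic nucleotides, fell in both groups, with -0.37 (adjusted p = 3.24e-05) in WTHK2-labelled libraries and -0.44 (adjusted p = 6.42e-06) in LAC. Abcc1, a multidrug exporter, and Abcd3, of peroxisomes, fell in both groups too, at -0.24 and -0.21 in WTHK2-labelled libraries and -0.35 and -0.26 in LAC.

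Of 23 listed carrier partners and ion pumps, 3 were higher and 9 lower in WTHK2-labelled libraries and 3 were higher and 8 lower in LAC, beside 21.0% higher and 25.4% lower, and 22.4% higher and 27.1% lower, over all genes. With libraries set to an equal median the WTHK2 count was 6 higher and 6 lower, where all genes gave 27.1% and 20.2%. Wnk1, a kinase that regulates the Slc12 cotransporters, stood at 252, 264 and 253 CPM in WTHK2-labelled libraries, 229, 285 and 236 CPM in LAC, and 368, 373 and 342 CPM in EV. Both groups lay below EV, at -0.49 (adjusted p = 1.72e-06) and -0.53 (adjusted p = 1.23e-06). Bsg, the partner that brings Slc16a1 to the cell surface, rose to 800.4, 753 and 809 CPM in LAC, against 655, 643 and 696 CPM in EV (log2 fold change 0.24, SE 0.0388, adjusted p = 4.55e-05), and rose in WTHK2-labelled libraries too, by 0.16 (adjusted p = 0.00264). Atp2a2, the calcium pump of the endoplasmic reticulum, and Atp13a3, a polyamine pump, fell in both groups, at -0.24 and -0.23 in WTHK2-labelled libraries and -0.35 and -0.32 in LAC. Atp13a1, a pump of the endoplasmic reticulum, rose in both groups, by 0.24 in WTHK2-labelled libraries (adjusted p = 0.00152) and 0.25 in LAC (adjusted p = 0.00119).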

How the data were processed

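RNA of 9 CHO MI5-4 libraries was sequenced, 3 each of WTHK2, LAC and EV. The deposited values are normalized CPM (read counts scaled to a common total) that the authors made. Per the submitters' processing notes, edgeR 3.8 was among the tools, beside featureCounts 2.0.1, STAR 2.7.0a, cutadapt 1.18 and FastQC 0.11.8. Build, annotation and use of strand in counting: not given in the sources used here. In the table no gene averaged under 20.4 CPM. In each library every value was a whole multiple of a single step within 0.01 reads, which gave the effective library sizes. These recovered reads entered one alternative only, voom.

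Symbols, groups and columns were joined in Python 3.11.15 (numpy 2.4.6, pandas 2.3.3, matplotlib 3.10.9). Tests used limma 3.58.1 in R 4.3.3 on log2(CPM + 1) with a variance trend, all 9 libraries, two-sided, Benjamini-Hochberg adjusted over 6753 genes at 0.05. The filter of a mean of 1 CPM removed 0 genes, and all 93 members passed it. The scripts were tested on simulated data. The pseudocount limits the folds of low genes, and depth limits those of small changes: the within-group coefficient of variation had a median of 5.17% over members and 4.22% over all genes. Intervals are at 95% and cover the spread between libraries only.

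Same-numbered replicates were checked for pairing and did not deviate together in every pair, so the main fit used no block. Those of WTHK2 and LAC had positive correlations, of 0.0733 to 0.437. The lowest was that of replicate 3, and WTHK2 replicate 3 correlated more with LAC replicate 2 (0.186), so pairing of these groups was not settled. Members, substrate classes and the 3 further lists were chosen with earlier results of these data known. Genes were named by rule: per comparison with EV the 10 largest called rises and falls whose groups do not overlap, per class up to 4 called members (2 where none was called), from WTHK2 against LAC the 5 largest in each direction, the 5 most abundant members, up to 4 called genes per list, and Hk1 and Hk2. All other named genes were added after their values were seen, among them Slc16a1, Slc3a2, Slc1a3, Slc1a5 and the remaining called members. The 3 members that match by name only were set apart, and the Slc35 subfamilies b to g were listed, after the gene names were seen. Of the 93 symbols, 89 matched the RefSeq table of CriGri-PICRH-1.0, which was used for neighbouring genes only. Alternatives changed the pseudocount, scaling, filter, libraries, variance model, block and single libraries. Sequences were not analysed here, and 2 members enter the counts but are not reported by name.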

Additional observations from a re-analysis of the deposited data

How the results depend on the processing

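Of 132 called gene results named in the text, 82 passed in the same direction under all 20 alternative settings and 50 lost their call under at least 1. No called gene reversed. Reversals were seen for values near 0 that were not called. Slc35a4 in WTHK2 against EV was -0.0035 without EV replicate 2, -0.0010 without EV replicate 3 and -0.0218 without WTHK2 replicate 2, up to 0.0502 without WTHK2 replicate 1. Slc3a2 in WTHK2 against EV was -0.0043 without EV replicate 1, -0.0234 without WTHK2 replicate 1, -0.0013 by voom on recovered reads, up to 0.0267 without WTHK2 replicate 2, and -0.0234 with replicate 1 of both WTHK2 and LAC left out. Slc17a5 in LAC against EV was -0.0535 without EV replicate 2, -0.0134 without LAC replicate 1, -0.0509 without LAC replicate 2 and -0.0134 without both first replicates, up to 0.0806 without LAC replicate 3. Slc38a10 in LAC against EV was 0.0262 with libraries set to an equal median and 0.0036 without EV replicate 3, down to -0.0327 without LAC replicate 1.

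The median log2 fold change of the 93 members moved to 0.0024 in WTHK2 and 0.0394 in LAC with all libraries set to an equal median, and to 0.0236 in LAC under quantile normalization, each against EV. The cause was not tested. With a library left out at a time, WTHK2 against EV gave 13 to 17 higher and 14 to 23 lower members and a median of -0.0438 to -0.0048. All genes then gave 16.1% to 22.1% higher and 20.1% to 26.6% lower. LAC against EV gave 12 to 19 higher, 20 to 29 lower and a median of -0.0225 to 0.0025. Over all genes 17.0% to 23.9% were higher and 22.2% to 28.1% lower. WTHK2 against LAC gave 5 to 10 higher, 5 to 14 lower and a median of -0.0054 to 0.0245. Over all genes 4.93% to 9.63% were higher and 4.87% to 9.31% lower. Voom on recovered reads and leaving out both first replicates were chosen after seeing the data. Voom gave 16 higher and 22 lower in WTHK2 against EV, 17 and 26 in LAC against EV, and 9 and 10 in WTHK2 against LAC. Without both first replicates these were 15 and 24, 13 and 24, and 8 and 10.

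Same-number correlations ran from -0.0057 to 0.141 between WTHK2 and EV and from 0.0175 to 0.207 between LAC and EV. Between WTHK2 and LAC they ran from 0.0733 to 0.437, where pairs of different number ran from -0.335 to 0.186. Whether the replicate numbers pair these 2 groups was therefore not settled. With the replicate block 18 members were higher and 23 lower in WTHK2 against EV, 18 and 28 in LAC against EV, and 13 and 12 in WTHK2 against LAC. Over all genes the block gave 23.1% and 27.8%, 24.8% and 28.7%, and 10.8% and 10.1%, in the same order. With 3 libraries a group, some calls change on leaving out 1 library, and carriers below the listed level were not analysed here.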
